A study of Mus musculus with 6 samples.

Results

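The replication-dependent histone genes supply the core histones H2A, H2B, H3 and H4, around which DNA is wound in nucleosomes. They lie in clusters, have almost no introns, and are transcribed mainly while a cell copies its DNA in S phase. Their mRNAs end in a short stem-loop in place of a poly(A) tail. The stem-loop is bound by SLBP, and together with the U7 small nuclear RNA it directs the cut that makes the 3′ end. Such mRNAs are lost when poly(A) is used to select RNA, whereas total RNA sequencing keeps them. In the small intestine, dividing cells sit in the crypts, and the villi are covered by cells that no longer divide.

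Members were taken by name and count from a table of 45777 genes, of which 21949 are protein-coding. Names that begin with Hist1h to Hist4h, or with H2ac, H2bc, H3c or H4c and a number, occurred 58 times, and 57 of these genes are protein-coding. A summed count of at least 10 over the 6 libraries left 56 members, with 16 H2A, 17 H2B, 12 H3 and 11 H4 genes. Just inside this limit by count was H2bc1, an H2B form known from testis, with a summed count of 375, and just outside was H2ac1 with 2. Hist1h2al was left out because the table calls it a transcribed pseudogene (summed count 4567). No linker histone H1 gene is covered by these names. All 56 members passed the filter on low counts.

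The RNA came from mouse small intestine, in 3 libraries labelled GFP and treated as control, and 3 labelled overexpression of PKCzeta. This kinase belongs to the atypical branch of protein kinase C, and its gene is Prkcz. Each title starts with DIO, an abbreviation that no source used here spells out. Strain, age, the vehicle of the transgene and the cells it reached are not given in the sources used here. Total counts ran from 77573133 to 93742978 per library. Libraries are named by their label and number, and series of values below run through GFP 1-1, 1-4 and 3-1 and then PKCzeta 2-1, 4-1 and 4-2. Prkcz was at 70.5, 98.6 and 96.9 CPM (counts scaled to a common library size by TMM) in the GFP libraries, against 82.5, 100.07 and 57.0 CPM in the PKCzeta libraries. The ranges overlapped, and the log2 fold change was -0.15 (SE 0.24, edgeR adjusted p 0.950). An exact permutation test, two-sided, gave p = 0.7 with 0.1 as the smallest p that 3 against 3 libraries allow. On log2(TPM + 1) the difference was 0.053 and without PKCzeta 4-2 it was 0.047. The targeted gene therefore does not separate the labels, and each direction below is one between labels. The tissue markers were present, with summed levels of 8 enterocyte genes from 13503 to 38464 CPM, while 5 pancreas acinar genes summed to at most 4.92 CPM and 5 liver genes to at most 8.61 CPM.

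The stem-loop is what sets these mRNAs apart, so its sequence is shown first for members of each class. It was searched for after the stop codon in GENCODE M21 transcripts (build GRCm38, which mm10 names) as 16 bases with a stem of 6 pairs that begins with GG and a loop of 4 that begins with TT. Capitals mark the 16 bases, and lower case marks the transcript on either side.
H4c3: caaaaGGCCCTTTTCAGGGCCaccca
H4c11: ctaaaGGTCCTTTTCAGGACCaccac
H2ac18: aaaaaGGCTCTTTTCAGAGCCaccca
H2ac20: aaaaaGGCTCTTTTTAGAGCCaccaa
H2bc12: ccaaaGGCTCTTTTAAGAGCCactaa
H3c2: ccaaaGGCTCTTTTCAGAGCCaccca
The capitals lie at chr13:23698089-23698104 (minus strand) in H4c3, chr13:21735437-21735452 (plus) in H4c11, chr3:96246032-96246047 (plus) in H2ac18, chr3:96220418-96220433 (minus) in H2ac20, chr13:22036300-22036315 (plus) in H2bc12 and chr13:23752820-23752835 (plus) in H3c2. All are in the 3′ untranslated region of the annotated transcript.

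All 56 members were matched to a GENCODE transcript by Entrez ID, and 36 of them hold a stem-loop of this form. It begins 21 to 58 bases after the stop codon, with a median of 31.5. The H2A, H2B and H3 genes share the stem GGCTCT, in the form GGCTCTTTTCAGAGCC in 9 H2A, 7 H2B and 5 H3 genes and in the form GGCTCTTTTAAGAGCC in 2 H2B and 3 H3 genes. The H4 genes have other stems, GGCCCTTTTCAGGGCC in 5, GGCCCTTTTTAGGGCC in 2 and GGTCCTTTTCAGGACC in 2. Of the 20 members with no match, 13 have an annotated 3′ untranslated region under 20 bases, so the annotation ends before the place where a stem-loop would lie. The other 7, H2bc21, H2bc4, H3c13, H3c8, H4c1, Hist1h2bq and Hist1h2br, have 20 bases or more and no such letters. That of H3c13 has only 37 bases. It ends before a stem-loop begun 24 bases after the stop codon, the nearest among H3 genes, would be complete. The GENCODE transcript goes on for over 100 bases past the stem-loop in 15 of the 36. By RefSeq positions, most of these 15 genes end just past it. H4c3, on the minus strand, ends at 23698084 there, with its stem-loop at 23698089-23698104. H2bc6 and H3c6 run on in RefSeq as well.

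The members lie in 2 places, 46 on chromosome 13 between 21715711 and 23934156 (mm10) and 10 on chromosome 3 within 50.3 kb, between 96219885 and 96270192. Among the 51 members with a start in RefSeq's promoter table, 9 H2A genes and 9 H2B genes on chromosome 13 form pairs that start 164 to 268 bases apart and are read away from each other, so that a pair shares the DNA between its starts. By gene ends and GENCODE strands, which all 56 members have, there were 11 such pairs, the further ones being H2ac6 with H2bc4 (240 bases) and H2ac20 with H2bc21 on chromosome 3 (192 bases). The pair H2ac12 and H2bc12 has 178 bases between its RefSeq starts. The 250 bases before the start of H2bc12 (RefSeq, GRCm38.p6, plus strand, chr13:22035571-22035820) therefore hold the whole stretch between them. Those before H3c2 (plus strand, chr13:23752095-23752344) are given beside them as an H3 gene with no partner within 500 bases. Capitals mark 3 promoter elements on either strand, namely CCAAT boxes, the TATAAA element and the octamer ATTTGCAT. In the window of H2bc12, the letters TTTATA lie past the RefSeq start of H2ac12, inside that gene and outside the stretch between the starts.
H2bc12 upstream: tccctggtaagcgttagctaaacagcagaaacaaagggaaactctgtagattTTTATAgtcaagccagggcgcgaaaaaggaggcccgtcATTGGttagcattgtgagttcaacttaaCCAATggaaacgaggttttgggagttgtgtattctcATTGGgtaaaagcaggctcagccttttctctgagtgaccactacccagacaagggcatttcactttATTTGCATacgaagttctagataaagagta
H3c2 upstream: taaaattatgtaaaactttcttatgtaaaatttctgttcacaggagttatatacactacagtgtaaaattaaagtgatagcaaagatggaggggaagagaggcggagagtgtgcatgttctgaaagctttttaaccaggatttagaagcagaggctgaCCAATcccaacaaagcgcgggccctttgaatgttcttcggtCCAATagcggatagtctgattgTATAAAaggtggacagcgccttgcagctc
In windows of 300 bases (250 before and 50 after the start), 51 members were matched in RefSeq and were set beside 27025 promoters of all genes. No motif of the 3 contains another. CCAAT occurred in 44 of 51 (all 16 H2A, 15 H2B and 10 H3 windows and 3 of 10 H4 windows), against 37.9% of all promoters. TATAAA occurred in 29 of 51, among them 8 of 10 H4 windows, against 14.2% of all. ATTTGCAT occurred in 11 of 51, in 5 H2A and 6 H2B windows and in no H3 or H4 window, against 1.75% of all. These are matches of letters, and binding was not measured. Windows of an opposed pair overlap, so the same element can count for both genes. This was so for the octamer of H2ac12 and H2bc12 and for that of H2ac8 and H2bc8.

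Histone mRNA was higher in 3 of the 6 libraries than in the other 3, and this split did not follow the labels. The summed level of the 56 members was 1910, 3245 and 1780 CPM under the GFP label and 1769, 2680 and 3289 CPM under the PKCzeta label. GFP 1-4, PKCzeta 4-1 and PKCzeta 4-2 were high, the other 3 libraries were low, and both labels had libraries of each kind. The label means were 2312 ± 811 and 2579 ± 765 CPM (SD, n = 3 libraries), and they gave a difference of 0.17 on the log2 scale beside a pooled SD of 0.46. The difference was thus smaller than the spread between libraries of one label. Per length, in deposited TPM values that are scaled for transcript length, the summed levels were 4591, 8243 and 3899 against 4249, 7421 and 10626, with the same 3 libraries high. Of all counts, members took from 0.157% in GFP 3-1 (95% exact Clopper-Pearson interval 0.156 to 0.158) to 0.393% in PKCzeta 4-2 (0.391 to 0.394), intervals that cover counting error only. In bulk tissue, fewer cells that make these mRNAs and less of them per cell cannot be told apart.

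**Figure D1:**
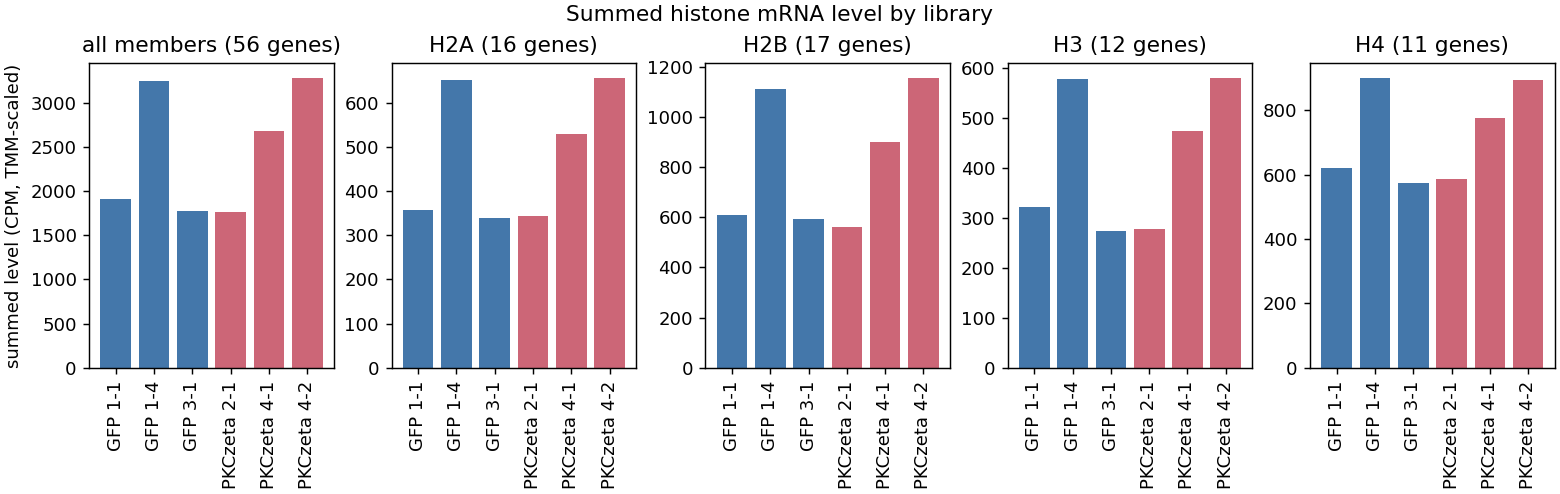
Summed level of all 56 members and of each class (vertical axis, TMM-scaled CPM, from 0) in each of the 6 libraries (bars; blue, GFP-labelled; red, PKCzeta-labelled; n = 3 per label). In each panel GFP 1-4, PKCzeta 4-1 and PKCzeta 4-2 stand above the other 3 libraries, for all members at 2680 to 3289 CPM against 1769 to 1910.

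The same 3 libraries were the highest for each class of core histone, though the order among them differed. H2A genes summed to 357, 651 and 339 CPM under the GFP label and to 343, 530 and 657 under the PKCzeta label. H2B genes summed to 610, 1114 and 594 against 563, 899 and 1158 CPM, and H3 genes to 323, 579 and 273 against 277, 473 and 581. For H4 genes the sums were 621, 902 and 573 against 586, 777 and 893 CPM, with GFP 1-4 highest in place of PKCzeta 4-2, and the highest library was 1.57 times the lowest, where it was 2.13 times for H3. Per length, H4 made up 40.1%, 34.4% and 40.0% of histone TPM under the GFP label and 41.1%, 35.6% and 33.4% under the PKCzeta label, lower in the 3 libraries where histone mRNA was high. H2B took 28.3%, 31.6% and 29.2% against 27.7%, 30.8% and 32.7%, higher in those libraries. Neither share separated the labels.

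Within the members, the pattern over libraries was nearly uniform. GFP 1-4, PKCzeta 4-1 and PKCzeta 4-2 were the 3 highest libraries for 55 of 56 members, where 13.9% of all 18456 tested genes had these 3 highest. The exception was H4c3. These 3 libraries were named from the sum of the same members, so a high share among members was in part built in. PKCzeta 4-2 was the highest library for 38 members, GFP 1-4 was the highest of its label for all 56, and PKCzeta 2-1 the lowest of its label for 55. The ratio of the highest to the lowest library had a median of 2.23 over members (1.21 to 3.17), beside 1.97 over all tested genes. By class its median was 2.09 for H2A, 2.46 for H2B, 2.39 for H3 and 1.90 for H4. Of the stretches of 50 bases in a member's GENCODE transcripts, a median of 54.3% occurred in another member as well. At least 50% were shared in 30 members. Reads of such copies can move between members, so these genes are not independent. How reads with several matches were counted is not stated, so a sum may also hold the same read more than once.

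**Figure D2:**
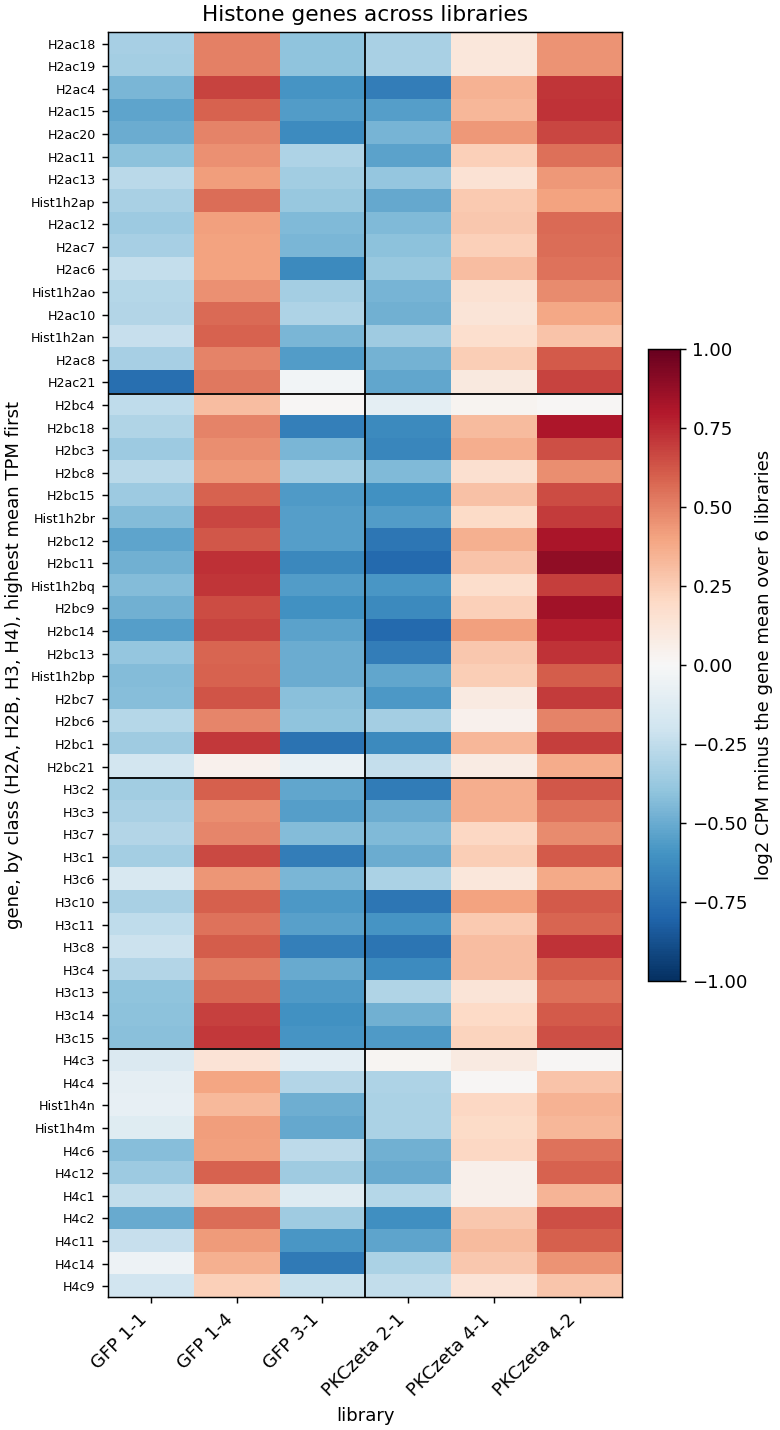
Each member's log2 CPM minus its own mean over the 6 libraries (colour, red higher, blue lower), with members grouped by class and ordered by mean TPM, and the vertical line between GFP-labelled and PKCzeta-labelled libraries. GFP 1-4, PKCzeta 4-1 and PKCzeta 4-2 are red for nearly all members, and H4c3 is the pale exception at the top of the H4 block.

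The question the design asks is whether histone genes differed under the PKCzeta label, and in edgeR 0 of the 56 members passed an adjusted p of 0.05, where 0% of the 18456 tested genes passed. The smallest adjusted p among members was 0.917. At an unadjusted p under 0.05, 0 members were higher under the PKCzeta label, beside 2.41% of all tested genes, and 0 were lower, beside 3.07%. Libraries of the labels did not overlap for 0 members in the higher direction (4.72% of tested genes) and for 0 in the lower direction (5.66%). DESeq2, run as an alternative, also called 0 members, where it called 0.479% of the genes with an adjusted p. Log2 fold changes (PKCzeta minus GFP) were above 0 for 54 of 56 members, where 54.3% of all tested genes were, with a median of 0.20 beside 0.035 over all tested genes. They ran from -0.057 to 0.41 with SEs from 0.14 to 0.52, and the 95% interval of each member held 0. The median was 0.17 for H2A, 0.22 for H2B, 0.20 for H3 and 0.12 for H4, and it was 0.17 on chromosome 3 and 0.20 on chromosome 13.

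The sign of this median rested on single libraries. Without PKCzeta 4-2 it was -0.060, with 14 members above 0, and without GFP 3-1 it was -0.0010, with 28 above 0. Without GFP 1-1 it was 0.039, with 40 members above 0. Without GFP 1-4 it was 0.59, with all 56 above 0 and 1 at an unadjusted p under 0.05, and without PKCzeta 2-1 it was 0.39. Without PKCzeta 4-1 the median was 0.17. In limma voom with quality weights it was 0.42, and on log2(TPM + 1) it was 0.41, where the median of all tested genes was itself 0.14. No member passed an adjusted p of 0.05 in any of these fits.

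**Figure D3:**
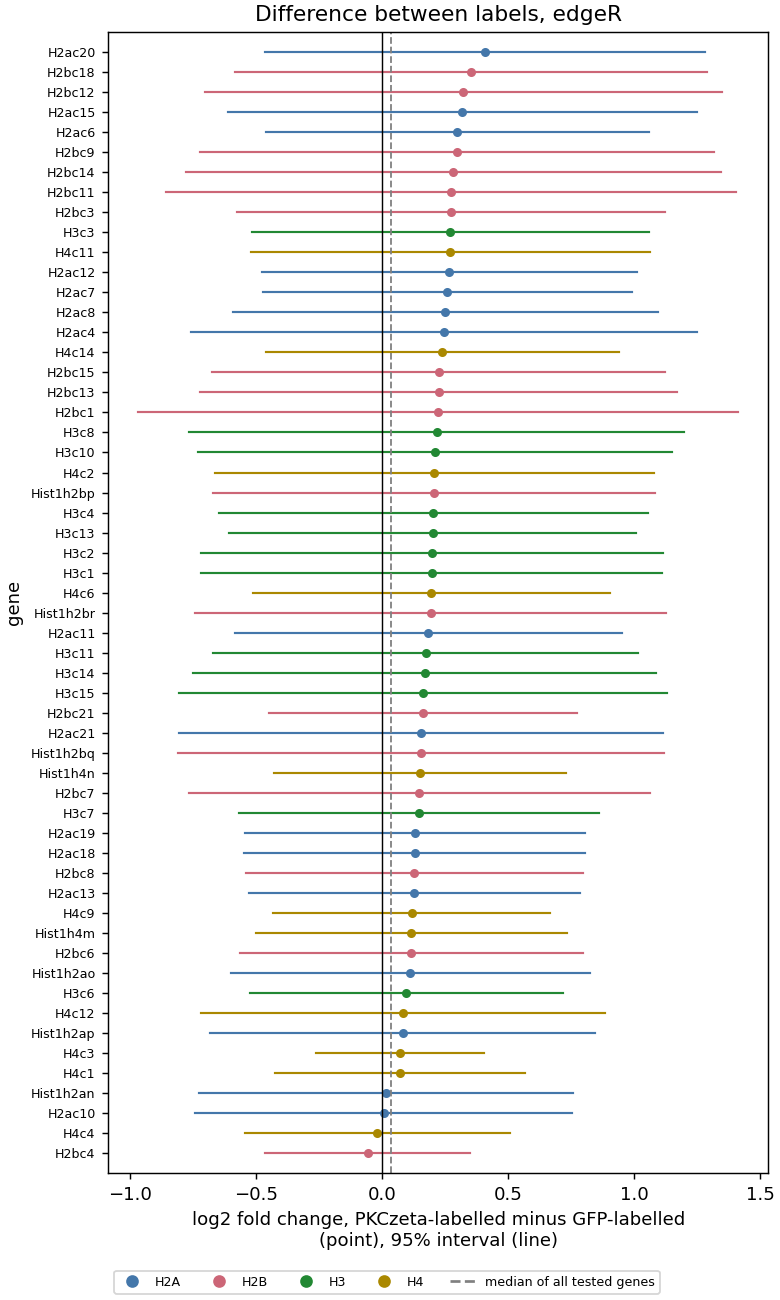
Log2 fold change of each member between labels (horizontal axis, PKCzeta-labelled minus GFP-labelled; point, edgeR estimate; line, 95% interval; colour, class; n = 3 per label), ordered by size, with the median of all tested genes as a dashed line. Points lie between -0.057 and 0.41, and each line crosses 0.

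Among the H4 genes, H4c3 was the most abundant member of all at a mean of 573 TPM. It stood at 151, 183 and 155 CPM under the GFP label and at 169, 177 and 168 CPM under the PKCzeta label. The values lay closer together than those of any other member, with a ratio of 1.21 between the highest and the lowest library, and the log2 fold change was 0.073 (SE 0.14, edgeR adjusted p 0.960). H4c4, next at 400 TPM, stood at 114, 159 and 99.1 against 98.0, 122 and 148 CPM, with GFP 1-4 highest. Its log2 fold change of -0.018 (SE 0.23) was below 0, but it was 0.11 in limma voom and 0.22 on log2(TPM + 1). Hist1h4n (255 TPM) and Hist1h4m (249.5 TPM), which share sequence with other H4 copies, had 0.15 (SE 0.25) and 0.12 (SE 0.27).

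Other H4 genes moved more between libraries. H4c6 (223 TPM) stood at 46.4, 82.5 and 52.0 CPM under the GFP label and at 44.6, 72.0 and 90.7 under the PKCzeta label. H4c12 (164 TPM) stood at 37.5, 72.9 and 37.8 against 34.2, 50.04 and 72.8 CPM. H4c11, with the stem GGTCCT shown above, stood at 26.3, 41.4 and 20.6 against 21.4, 38.5 and 46.6 CPM. It had the largest log2 fold change of its class, 0.27 (SE 0.34, edgeR adjusted p 0.931), and its high libraries were again GFP 1-4, PKCzeta 4-1 and PKCzeta 4-2. The ranges of the labels overlapped for all of these genes.

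The H2B genes spanned the widest range of behaviour. H2bc4 (315 TPM), a gene known also to give polyadenylated mRNA, stood at 139, 205 and 167 CPM under the GFP label and at 154, 169 and 167 CPM under the PKCzeta label. Its ratio of highest to lowest library was 1.48, and its log2 fold change of -0.057 (SE 0.18), the lowest of all members, was 0.014 in limma voom and 0.22 on log2(TPM + 1). H2bc18 on chromosome 3 (266 TPM) stood at 73.6, 128 and 56.5 against 58.4, 113 and 158 CPM, a ratio of 2.80 and a difference between labels of 0.35 on the log2 scale (SE 0.40, edgeR adjusted p 0.930). It shared no stretch of 50 bases with another member. The ranges of the labels overlapped for both genes, with GFP 1-4 above PKCzeta 2-1.

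The opposed pair shown above was H2bc12 and H2ac12. H2bc12 (142 TPM) stood at 33.6, 74.7 and 33.01 CPM under the GFP label and at 29.4, 61.9 and 85.5 CPM under the PKCzeta label. H2ac12 (58.8 TPM) stood at 17.3, 29.6 and 16.3 against 16.4, 26.8 and 32.9 CPM. Both were high in GFP 1-4, PKCzeta 4-1 and PKCzeta 4-2, and their log2 fold changes were 0.32 (SE 0.44) and 0.27 (SE 0.32). In the 11 pairs the H2B partner had the higher mean TPM in 9, the exceptions being H2ac13 (71.3 TPM) with H2bc13 (57.4 TPM) and H2ac20 (82.1 TPM) with H2bc21 (1.53 TPM). Of the remaining abundant H2B genes, H2bc3, H2bc8, H2bc15 and Hist1h2br had means of 162 to 189 TPM and log2 fold changes of 0.13 to 0.27. H2bc21, known also to give polyadenylated mRNA, was rare at 1.53 TPM, with a ratio of 1.52 between libraries.

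In the H2A class, H2ac18 and H2ac19 were the most abundant, at 226 and 212 TPM. They are near-identical copies on chromosome 3, and 89.2% of the 50-base stretches of H2ac18 and 100% of those of H2ac19 occur in another member. Their values were almost equal, 73.4, 131 and 70.0 against 74.0, 99.9 and 126 CPM for H2ac18 and 73.7, 132 and 70.6 against 74.4, 101 and 127 CPM for H2ac19. H2ac20 (82.1 TPM), also on chromosome 3 and with the loop shown above, stood at 19.1, 37.9 and 17.4 against 19.5, 36.4 and 42.7 CPM. This was the largest log2 fold change of any member, 0.41 (SE 0.38, 95% interval -0.47 to 1.28, edgeR adjusted p 0.917), and it lay between 0.19 and 0.85 when single libraries were left out. H2ac10 had the smallest of its class, 0.0077 (SE 0.32), which was -0.016 with DESeq2's size factors.

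No H3 gene had a mean level above that of H3c2, at 122 TPM. H3c2 stood at 33.3, 64.0 and 29.5 CPM under the GFP label and at 26.07, 54.5 and 65.1 under the PKCzeta label. H3c3 (116 TPM) stood at 31.9, 55.3 and 27.3 against 28.4, 51.5 and 58.4 CPM. H3c6 (84.1 TPM) stood at 51.0, 77.04 and 41.5 against 45.7, 61.6 and 74.0 CPM. In each, GFP 1-4 stood near PKCzeta 4-2, and the other GFP libraries near PKCzeta 2-1. The log2 fold changes were 0.20 (SE 0.40), 0.27 (SE 0.34) and 0.097 (SE 0.27), with edgeR adjusted p of 0.931 or more.

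**Figure D4:**
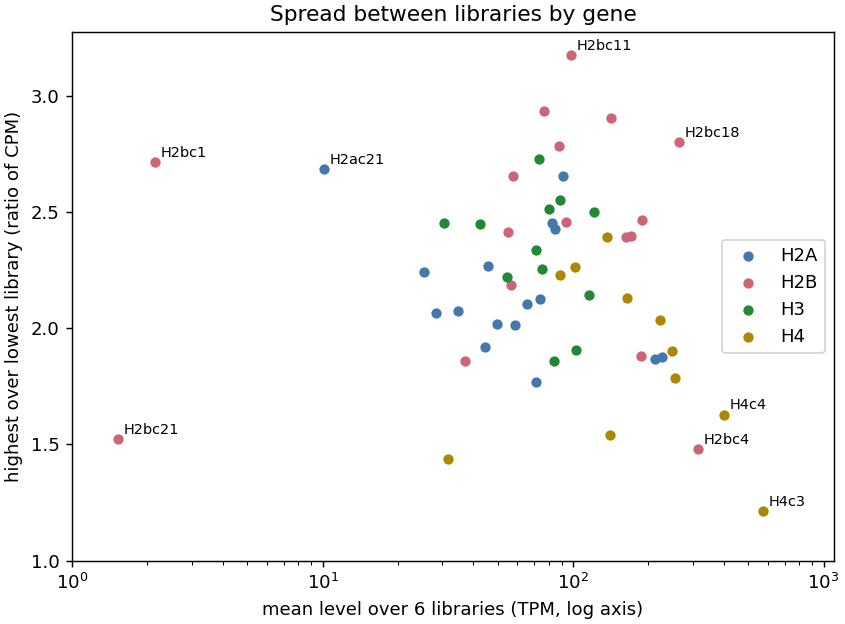
Ratio of the highest to the lowest of the 6 libraries (vertical axis, of CPM) against the mean level (horizontal log axis, TPM) for each member, coloured by class. The 3 most abundant members, H4c3, H4c4 and H2bc4, have ratios of 1.21, 1.63 and 1.48, below the median of 2.23.

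Levels per length covered a wide range, with 21 members above a mean of 100 TPM and 54 above 10 TPM. Only H2bc1 (2.15 TPM) and H2bc21 (1.53 TPM) lay below that. H2bc1 stood at 0.504, 1.05 and 0.387 CPM under the GFP label and at 0.414, 0.812 and 1.04 CPM under the PKCzeta label. The same 3 libraries were highest, with GFP 1-4 just above PKCzeta 4-2. Its counts were low, 32 to 109 per library, and 38.2% of its 50-base stretches occur in other H2B members. Some of these reads may therefore belong to abundant copies, which was not tested. The widest ratio, 3.17, was that of H2bc11 (97.9 TPM), at 21.7, 50.3 and 19.4 against 17.6, 36.9 and 55.9 CPM. The 3 most abundant members, H4c3, H4c4 and H2bc4, differed less between libraries than most, and they took from 16.1% (PKCzeta 4-2) to 25.7% (PKCzeta 2-1) of histone TPM. By annotated 3′ end, the 23 members whose 3′ untranslated region is over 100 bases long had a median ratio of highest to lowest library of 1.91 (1.21 to 2.78). The 33 with a shorter one had 2.40 (1.77 to 3.17). These groups were set after the values of H4c3 and H2bc4 were seen, and the ranges overlap widely. They rest on lengths annotated in GENCODE, and RefSeq ends many of the longer genes just past the stem-loop. The shorter group also holds the 13 members whose annotation ends before a stem-loop would lie. The groups thus sort annotated lengths, and the 3′ ends of the mRNAs were not measured. Split by the stem-loop instead, the 15 members with over 100 bases after it had a median ratio of 2.23 and the 21 with 100 or fewer had 2.18, so that split showed no such gap. Between labels, the median log2 fold change was 0.15 in the 23 members with the longer 3′ untranslated region and 0.21 in the 33 others. In the stem-loop split it was 0.16 with over 100 bases after the stem-loop and 0.20 with 100 or fewer.

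The 5 linker histone genes H1f1 to H1f5, whose products bind the DNA between nucleosomes, summed to 621, 824 and 650 CPM under the GFP label and to 664, 583 and 770 CPM under the PKCzeta label, a ratio of 1.41 between the highest and the lowest library beside 1.86 for the sum of members. H1f5 stood at 62.1, 112 and 43.8 against 51.5, 87.9 and 126 CPM, with the 3 highest libraries of the core histones. H1f2, known also to give polyadenylated mRNA, stood at 227, 262 and 236 against 264, 149 and 207 CPM, and PKCzeta 4-1 was its lowest library. Of the 5 genes, H1f1, H1f3 and H1f5 had the 3 highest libraries of the core histones. The 4 core histone genes with other names (H2c8, H2aw, H4f16 and H2bu2) summed to 142, 210 and 118 against 130, 174 and 201 CPM. The 4 genes listed as known to give polyadenylated mRNA (H1f2, H2bc4, H2bc21 and H4f16) summed to 412, 520 and 433 against 462, 369 and 428 CPM.

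The summed level of the replication-independent variant histones differed less between libraries than that of the members. Most of these genes have introns and give mRNAs with poly(A) tails, whereas H2afx and H1f0 have no introns and H2afx can also give an mRNA that ends in the stem-loop. The 15 listed genes summed to 1550, 1599 and 1690 CPM under the GFP label and to 1652, 1384 and 1580 CPM under the PKCzeta label, a ratio of 1.22 between the highest and the lowest. H3f3a and H3f3b, which both encode H3.3, stood at 523, 425 and 475 against 527, 449 and 407 CPM, and at 627, 665 and 752 against 703, 508 and 638 CPM. H2afx, the variant phosphorylated at DNA breaks, was at 20.9, 44.09 and 22.1 against 19.8, 26.8 and 45.7 CPM, high in GFP 1-4 and PKCzeta 4-2 and with a ratio of 2.31 between the highest and the lowest library. Of 11 tested variant genes 6 had a log2 fold change above 0 (median 0.022), beside 54.3% of all tested genes (median 0.035). Among the 11, 0 passed an adjusted p of 0.05 in edgeR, and 0 had an unadjusted p under 0.05. H1f7, H1f8 and H2afb1 were at 0 counts in all libraries. Core histone mRNA per H3f3a and H3f3b mRNA (ratio of summed CPM) was 1.66, 2.98 and 1.45 against 1.44, 2.80 and 3.15.

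Genes that make and process histone mRNA were also read. Of 24 tested genes of transcription and 3′ processing, 22 had a log2 fold change above 0, where 54.3% of all tested genes did. In edgeR 0 of the 24 passed, with 0 at an unadjusted p under 0.05. Their median was 0.23, beside 0.035 over all tested genes. Without PKCzeta 4-2 the median of these 24 genes was 0.083, without GFP 3-1 it was 0.15, and without GFP 1-4 it was 0.36. Slbp, whose product binds the stem-loop, stood at 29.7, 43.9 and 37.9 CPM under the GFP label and at 32.01, 39.0 and 43.5 under the PKCzeta label. Npat, the S phase activator of histone transcription, was at 24.07, 18.8 and 20.9 against 21.5, 21.9 and 22.8 CPM. Slbp was highest in GFP 1-4 and PKCzeta 4-2, and Npat was lowest in GFP 1-4. Zfp473, a zinc finger protein of the U7 complex, had a log2 fold change of 1.06 (SE 0.67) from a mean of 0.422 CPM under the GFP label, and Lsm11, a protein specific to the U7 particle, had 0.50 (SE 0.33). The U7 RNA gene Rnu7 itself was below the filter, at 0.073 to 0.137 CPM.

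Of 18 genes of histone mRNA decay and translation, 11 were above 0 (median 0.18), and of 23 histone chaperones 21 were (median 0.19). Over all tested genes, 54.3% were above 0 (median 0.035). Without PKCzeta 4-2 the chaperone median was 0.047, and without GFP 1-4 it was 0.34. Eri1, the exonuclease that trims the stem-loop end, stood at 27.2, 26.5 and 26.3 CPM under the GFP label and at 29.2, 32.3 and 39.5 CPM under the PKCzeta label. These ranges did not overlap, as was so in this direction for 4.72% of all tested genes. The difference was 0.34 on the log2 scale (SE 0.17, edgeR adjusted p 0.917). Nap1l1, an H2A-H2B chaperone, stood at 38.5, 28.7 and 22.6 against 45.9, 35.9 and 53.3 CPM, or 0.59 higher on the log2 scale (SE 0.24, edgeR adjusted p 0.877). It was the only gene of either list at an unadjusted p under 0.05, and 0 passed adjusted. Of all tested genes, 2.41% were higher under the PKCzeta label at that unadjusted p. The libraries of Nap1l1 were not ordered as those of the histones, since GFP 1-4 was below GFP 1-1.

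Most S phase and mitosis genes were highest in the same libraries as the histones. Of 43 tested S phase genes 36, and of 30 mitosis genes 23, had GFP 1-4, PKCzeta 4-1 and PKCzeta 4-2 as their 3 highest libraries, against 13.9% of all tested genes. A list's score is the mean deviation of its genes from their own mean log2 CPM. It was -0.32, 0.35 and -0.37 under the GFP label and -0.38, 0.04 and 0.67 under the PKCzeta label for S phase. For mitosis it was -0.21, 0.36 and -0.52 against -0.51, 0.18 and 0.70, and for the histone members -0.33, 0.51 and -0.46 against -0.48, 0.22 and 0.55. Histones were thus highest in the same libraries, with a smaller gap between GFP 1-4 and PKCzeta 4-2. Histone mRNA per S phase mRNA (ratio of summed CPM) was 3.79, 4.11 and 3.82 against 3.72, 4.32 and 3.48, a ratio of 1.24 between the highest and the lowest library. Set over the variant histones, the same sum varied 1.98 times.

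Single genes of the 2 lists showed these levels. In the S phase list, Hells, a chromatin remodeller, stood at 12.997, 14.994 and 10.6 CPM under the GFP label and at 9.92, 17.8 and 30.6 CPM under the PKCzeta label. Ung, which removes uracil from DNA, stood at 1.93, 3.45 and 1.85 against 2.36, 3.60 and 5.21 CPM. In the mitosis list, the cyclin gene Ccna2 stood at 39.4, 57.0 and 31.4 against 32.7, 53.2 and 89.6 CPM. In each of these genes, taken from those with the smallest p between labels in their list, PKCzeta 4-2 was highest. Log2 fold changes were above 0 for 41 of 43 S phase genes (median 0.23) and 29 of 30 mitosis genes (median 0.25). Over all tested genes, 54.3% were above 0 (median 0.035). In both lists 0 genes passed in edgeR or had an unadjusted p under 0.05. As for the members, the sign of the medians of the 2 lists rested on single libraries. Without PKCzeta 4-2 they were -0.063 for S phase and -0.042 for mitosis, and without GFP 1-4 they were 0.51 and 0.58. Without GFP 3-1 they were 0.077 and 0.064.

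**Figure D5:**
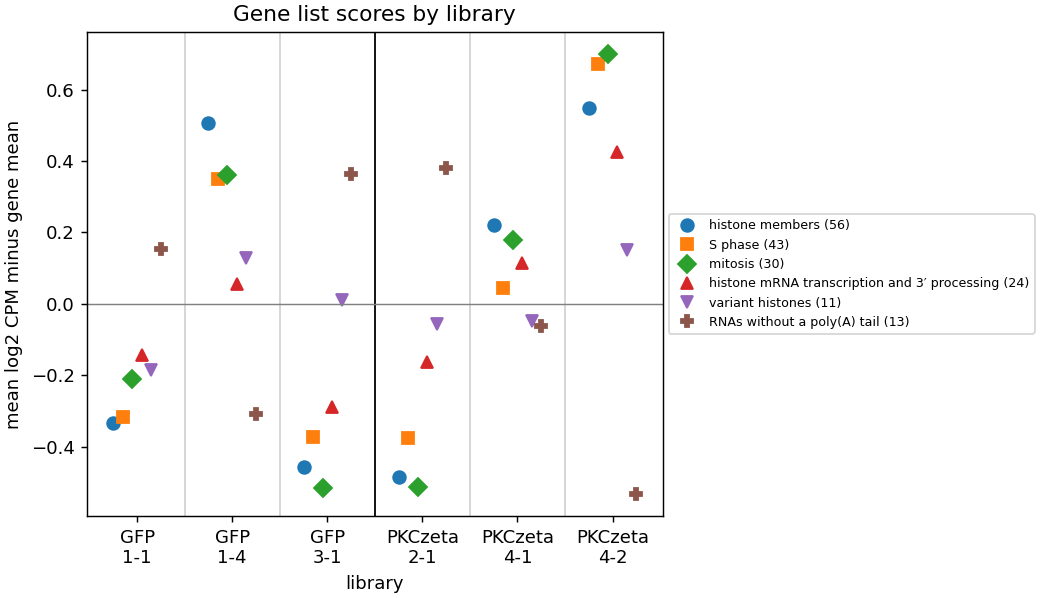
Score of 6 gene lists (vertical axis, mean over the list's tested genes of log2 CPM minus the gene's own mean) in each library, with the number of genes in brackets. Histone members, S phase and mitosis genes lie above 0 in GFP 1-4, PKCzeta 4-1 and PKCzeta 4-2 and below 0 in the other libraries, and RNAs without a poly(A) tail lie on the opposite side of 0.

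Other measures moved with the same libraries. Ribosomal RNA took 4.40%, 1.35% and 4.66% of counts under the GFP label and 4.44%, 2.33% and 0.956% under the PKCzeta label, and mitochondrial genes took 9.08%, 3.37% and 10.7% against 9.19%, 5.67% and 2.92%. Both were low in the libraries where histone mRNA was high. Other RNAs that also lack a poly(A) tail followed ribosomal RNA rather than the histones. Their list of 13 tested genes had scores of 0.15, -0.31 and 0.37 against 0.38, -0.06 and -0.53, and 0 of the 13 had the 3 highest libraries of the histones. Rn7s1, a 7SL RNA of the signal recognition particle, stood at 33342, 22016 and 36939 against 35364, 24856 and 15274 CPM. With the log2 share of ribosomal RNA as a covariate, a fit chosen after seeing the data, the median log2 fold change of members was -0.054 with 15 above 0, and 0 passed an adjusted p of 0.05. The SE of H2ac18, for example, was 0.13 in that fit and 0.29 without the covariate. The part of these measures in the histone levels was not tested.

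Markers of crypt cells were set beside the histones as well. All 5 Paneth cell genes had the 3 highest libraries of the histones, and their summed level was 5061, 19279 and 7605 CPM under the GFP label and 5171, 10534 and 16525 CPM under the PKCzeta label. Ang4, an antimicrobial protein of these cells at the crypt base, stood at 137, 616 and 210 against 153, 360 and 583 CPM. Of 5 crypt stem cell genes, Ascl2 and Smoc2 had these libraries highest, with sums of 471, 645 and 550 against 416, 462 and 664 CPM. Of 8 lymphoid genes 1, Jchain, did (sums from 526 to 2156 under the GFP label and 855 to 1305 under the PKCzeta label), and of 5 germinal centre genes 0 did, with sums of 6.66 to 14.6 and 11.6 to 17.4 CPM. None of the markers in these 4 lists was at 0 in all libraries. Enterocyte genes summed to 38464, 36665 and 28949 against 22291, 27745 and 13503 CPM, and 0 of 8 genes had these 3 libraries highest. Their part in the histone levels was not tested.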

How the data were processed

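Total RNA of mouse small intestine was sequenced in 6 libraries, 3 per label. Per the labels' protocols, RNA was extracted on columns, ribosomal RNA was depleted and libraries kept the strand. FastQC, Trimmomatic, HISAT2, StringTie and build mm10 are named in the submitters' processing notes. For the counting step, the program and its use of strand and of reads with several matches are not stated in any source used here.

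The authors deposited whole-number read counts without normalisation, and these were tested. The deposited TPM values, scaled for length, gave levels between genes and 2 alternative fits. The deposited FPKM values were not used. Positions were taken from RefSeq for the table's gene IDs, of which 45679 of 45777 matched.

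All 18456 genes kept by filterByExpr were fitted with edgeR 4.0.16 in R 4.3.3 (TMM scaling, robust quasi-likelihood F test, two-sided, n = 3 per label), with p-values adjusted by Benjamini-Hochberg over all of them. CPM values are TMM-scaled and errors are SDs. Total counts per library leave counting error small beside the spread between libraries, with a biological coefficient of variation of 0.354. The labels do not say that each library is a separate animal, so p-values may measure technical spread. No replicate numbers are shared between the labels. The edgeR step was tested on simulated data.

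Members, gene lists and marker lists were chosen with earlier results of these data known. Named are Prkcz, the 15 members with the highest mean TPM, and in each class the 2 highest and the largest change in each direction. From each list the 3 genes with the smallest p may be named, and histone variant and processing genes for their role. H2ac6, H2ac12, H2ac13, H2bc13, H2bc1, H2bc11, H2bc21, H1f3, H1f5, Ascl2, Smoc2 and Jchain were named after their values were seen. Alternatives were other scalings, filters, tests (DESeq2 1.42.0, limma 3.58.1), sets of genes and thresholds, the TPM values, and leaving out each library. Added after seeing the data were a ribosomal RNA covariate and changes to the set of summed genes.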

Additional observations from a re-analysis of the deposited data

How the results depend on the processing

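In every edgeR and limma alternative, and with each library left out, 0 genes of the whole table passed an adjusted p of 0.05, while DESeq2 called 87 genes, none of them a member. The median log2 fold change of members ranged from -0.060 to 0.59 when a library was left out, and the difference of summed levels (0.17) from -0.032 to 0.44. That difference was 0.38 on raw library sizes, 0.37 as a share of protein-coding counts, 0.39 on TPM, 0.15 over members with under 50% shared stretches and 0.12 with 9 further clustered histone genes. Shared stretches were taken over GENCODE transcripts, and some of these run past the RefSeq gene end. H4c4, for example, had 10.2% over a transcript of 1138 bases. The shares can thus be too low for the part that was counted. The median of the decay and translation list (0.18) was 0.40 on log2(TPM + 1), 0.43 on log2(TPM + 0.1), 0.11 with the ribosomal RNA covariate and 0.087 to 0.20 with a library left out. The medians of the other lists ranged from 0.083 to 0.36 (transcription and 3′ processing), 0.047 to 0.34 (chaperones), -0.063 to 0.51 (S phase) and -0.042 to 0.58 (mitosis) with a library left out. On log2(TPM + 1) they were 0.34, 0.37, 0.34 and 0.38, and with the ribosomal RNA covariate 0.11, 0.095, -0.018 and 0.0080, in the same order. The median of the variant histones (0.022) was 0.20 and 0.23 on the TPM scales and ran from -0.056 to 0.12 with a library left out. The median of all tested genes was itself 0.14 and 0.23 on those scales.

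Single members with small log2 fold changes changed sign. On log2(TPM + 1) and log2(TPM + 0.1), H2bc4 had 0.216 and 0.217, H4c4 had 0.216 and 0.216, and Prkcz had 0.053 and 0.055, and in limma voom H2bc4 had 0.014 and H4c4 0.11. H2ac10 had -0.016 with DESeq2's size factors, -0.016 in DESeq2 and -0.19 with the ribosomal RNA covariate. Over all 56 members, 15 were above 0 with that covariate, against 54 without it. Among the 21 members named for their level or change, the sign also changed there for H2ac18 -0.047, H2ac19 -0.045, H2bc12 -0.013, H2bc15 -0.048, H2bc3 -0.0083, H2bc8 -0.074, H3c2 -0.082, H3c6 -0.064, H4c12 -0.16, H4c6 -0.030, Hist1h2br -0.080, Hist1h4m -0.032. Signs of most members depended on single libraries, since 14 of 56 were above 0 without PKCzeta 4-2 and 28 without GFP 3-1. Of the 21 named members, 15 changed sign at least once when a library was left out, as did Prkcz, with these ranges of log2 fold change: H2ac10 -0.18 to 0.36, H2ac18 -0.065 to 0.48, H2ac19 -0.061 to 0.48, H2bc12 -0.033 to 0.82, H2bc15 -0.055 to 0.67, H2bc4 -0.20 to 0.10, H2bc8 -0.081 to 0.42, H3c2 -0.059 to 0.63, H3c6 -0.084 to 0.39, H4c12 -0.22 to 0.48, H4c4 -0.17 to 0.20, H4c6 -0.041 to 0.49, Hist1h2br -0.13 to 0.69, Hist1h4m -0.077 to 0.40, Hist1h4n -0.029 to 0.38, Prkcz -0.35 to 0.047. The causes were not tested. With 3 libraries per label and SEs up to 0.52, differences of the size seen in the members were not detectable.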
